A study of Mus musculus with 4 samples.

Results

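The genes described here encode the nuclear subunits of the 5 oxidative phosphorylation complexes. They were taken by symbol: names beginning with Nduf followed by a, b, c, s or v, the symbols Sdha to Sdhd, and names beginning with Uqcr, Cox4 to Cox8 or Atp5. This rule found 90 of the 23285 genes in the files, of which 82 encode subunits. The other 8 symbols belong to the complex I assembly factors Ndufaf1 to Ndufaf4, the supercomplex factor Cox7a2l, the synthase-related genes Atp5s and Atp5sl, and Cox4nb, an older symbol of a gene outside the respiratory chain. Ndufa4 was counted with complex IV, where its protein is now placed, although its symbol carries the complex I prefix.

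RNA was sequenced from thymocytes sorted at the DN3 stage, at which T cell precursors rearrange the T cell receptor beta genes. All samples were labelled C57BL/6, and the cells came from irradiated recipients that had received donor fetal liver cells 16 weeks earlier. The donors were wild type (WT) or had the Gata3(g/g) genotype, which the labels call a hypomorph, with 2 libraries of each. Replicates 1 of both genotypes carry the identifier of the same sequencing run (run 1 below), and replicates 2 that of another (run 2). The labels do not give the recipients' strain apart from that of the sample, nor their age or how much of their own thymus remained. Nor do they say that replicates are separate animals: p-values then measure only the spread between these samples, which may be technical. In sorted bulk cells, fewer cells of a type and less RNA per cell cannot be told apart.

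The libraries held 14331705 to 26901913 fragments. Levels are given as FPKM, fragments scaled by transcript length and by the depth of the library, and pairs of values are replicates 1 and 2 in that order. The Gata3 transcript, at 62.4 and 58.5 FPKM in WT, reached 120 and 96.1 FPKM under the Gata3(g/g) label, so it was higher there (log2 fold change 0.83 ± 0.15 SE, edgeR adjusted p = 0.00165). The labels do not describe how the allele was made, and a transcript level does not give the level of working protein. The value therefore cannot test the hypomorph label. The sign of every difference below rests on the labels. Of 12 T lineage and DN3 markers, 1 rose, Il2ra, which encodes CD25, and 11 were not called. Among all genes tested, edgeR called 3.9% higher. Erythroid transcripts were mainly a matter of the run: 9 markers summed to 1.45 and 2.40 FPKM in the run 1 libraries of WT and Gata3(g/g), and to 465 and 594 FPKM in those of run 2. Of these 9, 7 were tested and 1 was called higher, the globin gene Hba-a2 (log2 fold change 1.46, edgeR adjusted p = 0.0275). It was listed at 0 in both run 1 libraries and at 10.7 FPKM in WT and 30.4 in Gata3(g/g) in run 2. Hba-a1, also at 0 in run 1, stood at 85.2 FPKM in WT and 102 in Gata3(g/g) in run 2 and was not called (edgeR adjusted p = 0.597). DESeq2 and limma called 0 of the 7. The part of such transcripts in the results below was not tested.

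Oxidative phosphorylation passes electrons from NADH through complex I, or from succinate through complex II, to ubiquinone, then through complex III and cytochrome c to complex IV, which reduces oxygen. Complexes I, III and IV pump protons across the inner mitochondrial membrane, and complex V, the ATP synthase, lets them flow back to make ATP. The nuclear genome encodes most subunits and the mitochondrial genome a small set of core ones, which were not analysed here. Several complex IV subunits come as isoform pairs, and Cox6a2 is the heart and skeletal muscle form of the pair it makes with Cox6a1. Cox6a2 transcripts are also known from plasmacytoid dendritic cells. Thymocytes use oxidative phosphorylation beside glycolysis.

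Of the 85 members that reached a mean of 1 FPKM over the 4 libraries and could be tested, 1 was higher under the Gata3(g/g) label, Cox6a2, and 8 were lower: Ndufs5, Ndufa12, Ndufb4 and Ndufv3 of complex I and Uqcrq, Uqcrb, Uqcr10 and Uqcr11 of complex III. The remaining 76 were not called. The test was edgeR's quasi-likelihood F test with the run as a block, Benjamini-Hochberg adjusted over all 10224 genes tested at 0.05. That test called 6.9% of all genes, 3.9% higher and 2.99% lower, against 10.6% of the members, 1.18% higher and 9.41% lower. The members are more abundant, with a median level of 115 FPKM against 9.14 FPKM over all genes tested. The part of level in these shares was not tested. An unadjusted p under 0.05 was reached by 29 members, 27 of them negative, and by 20.9% of all genes. The shift was small in size: the median log2 fold change was -0.17 over the tested members and 0.01 over all genes tested, and 2 members, Cox6a2 and Ndufs5, changed by more than 1 on the log2 scale. Negative values were found for 68 of the 85 members (80.0%) and for 48.7% of all genes. The edgeR calls need the run block: without it edgeR called 0 members and 0 genes at all, with 1 member, Cox6a2, and 3.84% of all genes at an unadjusted p under 0.05. With the block, DESeq2 called 1 member higher and 2 lower beside 4.08% of all genes, and limma called Cox6a2 alone beside 0.176%.

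**Figure D1:**
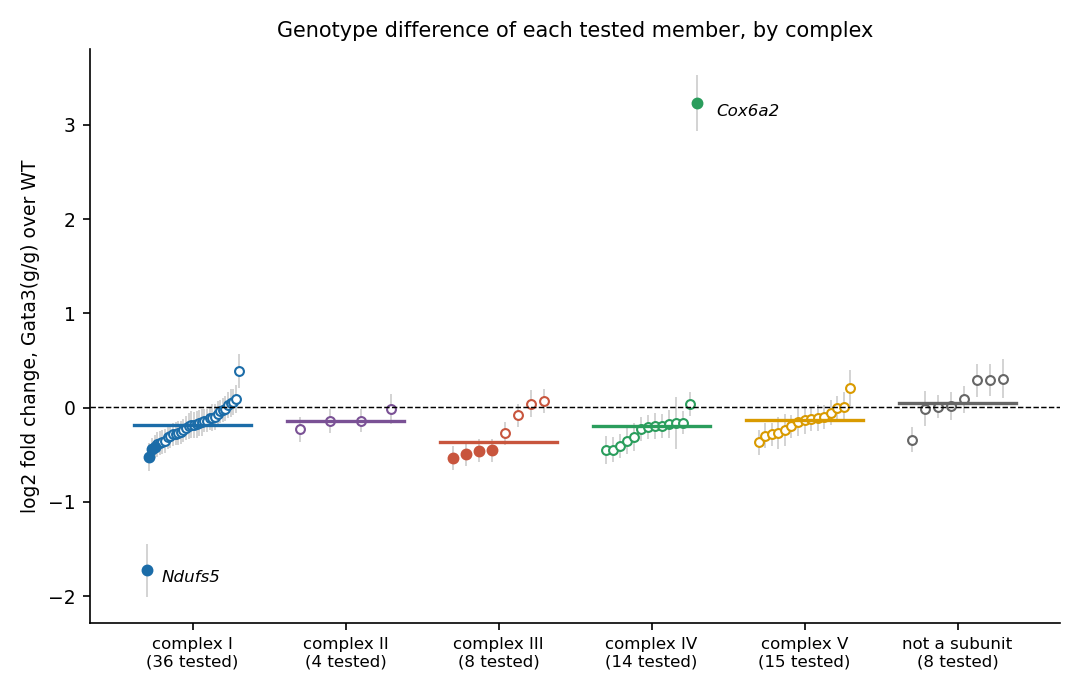
Log2 fold change (vertical axis, Gata3(g/g) over WT) of each tested member from the edgeR fit with the run as a block, grouped by complex and sorted within it. Filled points passed the test, vertical lines are ± 1 SE and horizontal bars are medians; most points lie a little below 0, with Cox6a2 at 3.23 and Ndufs5 at -1.72 standing apart.

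Cox6a2 was the member that rose. It encodes a small nuclear-encoded subunit of cytochrome c oxidase, complex IV. The WT libraries held 1.27 and 2.54 FPKM (25 and 34 fragments; 1.91 ± 0.898 FPKM, SD, n = 2) and those of Gata3(g/g) 15.3 and 19.2 FPKM (404 and 326 fragments; 17.2 ± 2.73 FPKM, SD, n = 2). Both Gata3(g/g) libraries stood above both WT libraries, in each run. The fitted log2 fold change was 3.23 ± 0.29 SE, a 9.40-fold difference (edgeR adjusted p = 2.08e-06), with within-run values of 3.51 in run 1 and 2.83 in run 2. DESeq2 and limma with the block also called it, with adjusted p = 3.68e-13 and 0.0226, and in the authors' deposited table it has a log2 fold change of 3.18 and a q of 0.00313. Without the block the edgeR log2 fold change was 3.19 with an adjusted p of 0.317, and the limma call was lost too (adjusted p = 0.353), while DESeq2, which then called 0.861% of all genes, kept it at 1.02e-07.

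Cox6a2 lies on chromosome 7 of GRCm38 at chr7:128205435-128206387, minus strand, with 680 exonic bases in 3 exons (GENCODE M21). The last 70 of these bases overlap an exon of Itgad, an integrin gene on the plus strand; that exon spans chr7:128205062-128205504, and the authors' deposited table gives both genes 1 joined locus. Whether the authors' counting used strand is not given in the sources used here, so fragments in the overlap cannot be told apart. Itgad itself stood at 30 and 58 fragments in WT and 98 and 89 in Gata3(g/g), and its log2 fold change of 0.75 did not pass the test (edgeR with no filter on low values, adjusted p = 0.291). Within 100000 bases of Cox6a2's locus, Itgax, which encodes the integrin chain CD11c of dendritic cells and macrophages, was the other gene that rose. It went from 23 and 15 fragments in WT to 111 and 61 in Gata3(g/g), a rise of 1.76 ± 0.44 SE on the log2 scale (edgeR with no filter, adjusted p = 0.00267). These fragments amount to 0.151 and 0.142 FPKM in WT and 0.547 and 0.447 FPKM in Gata3(g/g). Its neighbour Itgam, which encodes CD11b, stood at 14 and 12 against 35 and 46 fragments and was not called (adjusted p = 0.511), and Armc5, BC017158 and 9130023H24Rik, the neighbours expressed above 1 FPKM, lay between -0.25 and 0.08 and were not called either. No other annotated transcript shared at least 90% identity with Cox6a2 over 200 bases.

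Of the cell types known for Cox6a2, striated muscle had markers at or near 0, and the plasmacytoid dendritic cell list was mixed. All 15 striated muscle markers were below 1 FPKM in the mean of the 4 libraries, with sums of 0.633 and 1.07 FPKM in WT and 0.882 and 0.802 in Gata3(g/g). Of 14 plasmacytoid dendritic cell markers, 9 were tested and 1 rose, where edgeR called 3.9% of all genes higher. That marker was Ly6d, at 290 and 251 FPKM in WT and 608 and 649 in Gata3(g/g). Ly6d is also expressed by early lymphocytes, and the list summed to 439 and 417 FPKM in WT and 746 and 786 in Gata3(g/g). Without Ly6d the other 13 markers summed to 148 and 166 FPKM in WT and 138 and 137 in Gata3(g/g), Bst2 being the largest. That sum hides both directions. Tcf4 (0.32), Runx2 (0.38) and Lair1 (0.43) rose in both runs on the log2 scale. Bst2 (-0.28), Ccr9 (-0.29), Irf8 (-0.71) and Ptprs (-0.12) fell in both, and none of these was called. With edgeR, 6 of the 9 tested had an unadjusted p under 0.05, 2 of them negative, where 20.9% of all genes reached it. The other 5 markers each averaged below 1 FPKM and were not tested. Siglech, a defining marker of these cells, reached 0.0889 FPKM at most, with 1 and 0 fragments in WT and 5 and 7 in Gata3(g/g). Pacsin1 held 5 and 21 fragments in WT and 28 and 30 in Gata3(g/g), and Cd209d 0 and 0 against 0 and 2. Klk1 and Cd300c were listed at 0 in every library. Of 8 myeloid markers, 1 was tested and rose, Lyz2, which encodes lysozyme, where edgeR called 3.9% of all genes higher. The list summed to 10.6 and 5.09 FPKM in WT and 19.3 and 14.3 in Gata3(g/g). Without Lyz2 the other 7 summed to 0.688 and 0.890 FPKM in WT and 0.613 and 0.789 in Gata3(g/g). Each of these 7 averaged below 1 FPKM, and their sum also hides both directions. On the FPKM scale, Itgam and Csf1r were higher in Gata3(g/g) in both runs and Cebpa and Mpo lower in both. Elane, Fcgr3 and Cd14 did not keep to the same direction in both. The part of such cells in the Cox6a2 difference was not tested.

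Cox6a1, the form present in most tissues, remained far more abundant than Cox6a2 in every library. It measured 765 and 1022 FPKM in WT and 618 and 819 FPKM in Gata3(g/g), and its log2 fold change of -0.32 was not called (edgeR adjusted p = 0.234). Of the summed FPKM of the pair, Cox6a2 made up 0.166% and 0.248% in WT and 2.42% and 2.29% in Gata3(g/g). The share was higher in both Gata3(g/g) libraries, yet Cox6a1 still stood 40.3 and 42.7 times above Cox6a2 there on the FPKM scale.

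The other isoform genes of complex IV did not follow Cox6a2. Cox6b2, known as the testis form beside the common Cox6b1, stood at 45.7 and 58.9 FPKM in WT and 31.3 and 39.4 in Gata3(g/g). Both Gata3(g/g) libraries lay below both WT libraries, but its log2 fold change of -0.45 missed the threshold (edgeR adjusted p = 0.0836). Cox6b2 made up 17.4% and 14.0% of its pair in WT and 14.1% and 10.7% in Gata3(g/g), so the ranges overlapped. Cox7a1, the heart and muscle form beside Cox7a2, measured 13.0 and 22.8 FPKM in WT and 12.6 and 19.0 in Gata3(g/g), within the run difference (log2 fold change -0.16, adjusted p = 0.795). Its partner Cox7a2 measured 257 and 333 FPKM in WT and 193 and 251 in Gata3(g/g), with a log2 fold change of -0.41 that just missed the threshold (adjusted p = 0.0597). Cox4i2, Cox7b2, Cox8b, Cox8c and Ndufa4l2, the restricted forms of their families, each had a mean below 1 FPKM and were not tested, and Cox8c was listed at 0 in every library. Of their common partners, Cox4i1 (-0.17), Cox7b (-0.21) and Ndufa4 (-0.19) had negative log2 fold changes and Cox8a 0.04, none of them called.

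**Figure D2:**
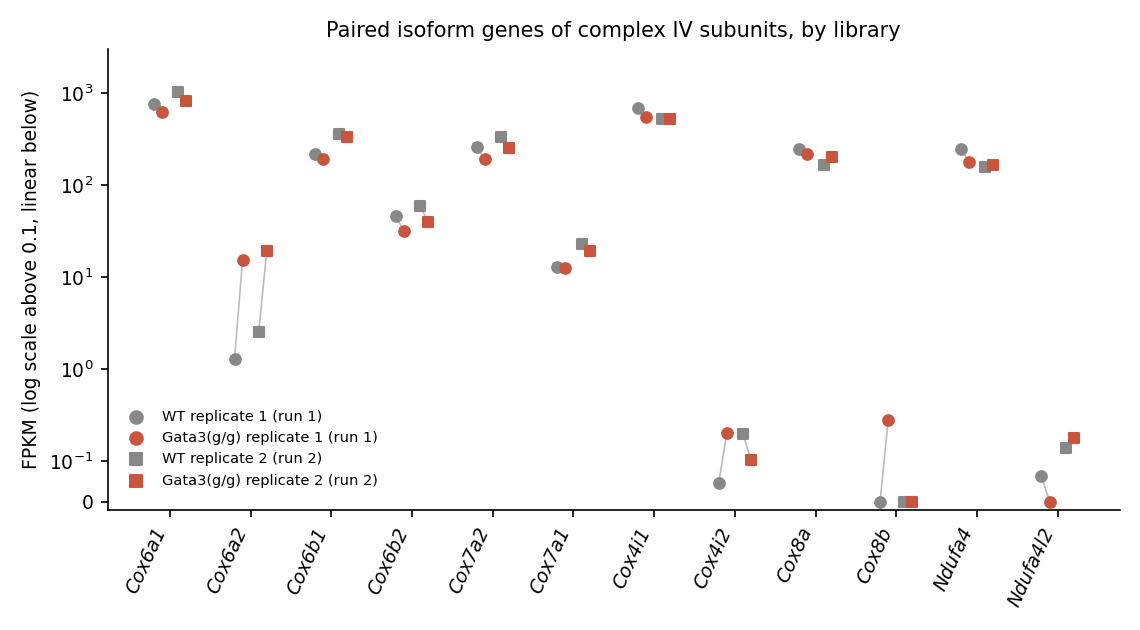
FPKM (vertical axis, logarithmic above 0.1 and linear below) of paired isoform genes of complex IV in each of the 4 libraries, circles for run 1 and squares for run 2, with a line joining WT and Gata3(g/g) of a run. Cox6a2 climbs from 1.27 and 2.54 to 15.3 and 19.2 while its partner Cox6a1 stays at 618 FPKM or more throughout.

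With edgeR, complex III had the most calls for its size. Of its 8 tested members, 4 were lower, where edgeR called 2.99% of all genes lower. With the block, DESeq2 called 1 of the 8 lower, Uqcrq, and limma 0. The median log2 fold change of the complex was -0.36, with run medians of -0.33 and -0.36. The 4 that fell are small accessory subunits, whereas the large core subunits did not pass the test. Uqcrq, which encodes a subunit that binds next to cytochrome b, measured 372 and 488 FPKM in WT and 275 and 317 in Gata3(g/g). Both Gata3(g/g) libraries lay below both WT libraries, and the log2 fold change was -0.53 ± 0.13 SE (edgeR adjusted p = 0.0166). Run 1 gave -0.40 and run 2 -0.67. Uqcr11, the smallest subunit of the complex, measured 242 and 297 FPKM in WT and 160 and 229 in Gata3(g/g). Again the groups did not overlap, and the fitted value was -0.49 ± 0.13 SE (adjusted p = 0.0248).

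Uqcr10 and Uqcrb fell within each run, but their groups overlapped because the runs differed more than the genotypes. Uqcr10, a small membrane-spanning subunit, measured 290 and 503 FPKM in WT and 211 and 371 in Gata3(g/g). Its within-run differences were -0.41 and -0.49, and the fitted log2 fold change was -0.45 ± 0.12 SE (edgeR adjusted p = 0.0320). Uqcrb, which takes part in ubiquinone binding, measured 186 and 489 FPKM in WT and 138 and 354 in Gata3(g/g). Its within-run differences were -0.40 and -0.51, the fitted value was -0.45 ± 0.12 SE (adjusted p = 0.0317), and the run difference was 1.39 in WT and 1.28 in Gata3(g/g) on the log2 scale. The sign of Uqcrb turned when the block was dropped together with WT replicate 2 (0.38) or with Gata3(g/g) replicate 1 (0.03), since that leaves the runs unbalanced. Transcripts of 4 other annotated genes match Uqcrb at 90% identity or more over at least 200 bases, so its value is uncertain; Uqcrq, Uqcr10 and Uqcr11 have no such copy.

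Of the large subunits of complex III, Uqcrfs1, Uqcrc1 and Uqcrc2 were not called. Uqcrfs1, the Rieske iron-sulfur protein, measured 67.5 and 37.9 FPKM in WT and 56.4 and 48.2 in Gata3(g/g), with a log2 fold change of 0.04 (edgeR adjusted p = 0.909), and -0.24 within run 1 and 0.33 within run 2. The core protein Uqcrc2 likewise had 0.07, with -0.11 and 0.25 by run, and Uqcrc1 had -0.08, with -0.11 and -0.05. Uqcrh, the hinge protein near cytochrome c1, measured 226 and 241 FPKM in WT and 185 and 202 in Gata3(g/g); the groups did not overlap, and -0.27 was not called (adjusted p = 0.207). Cyc1, which encodes cytochrome c1 and lies outside the symbol rule, had a log2 fold change of -0.25 and was not called (adjusted p = 0.296).

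**Figure D3:**
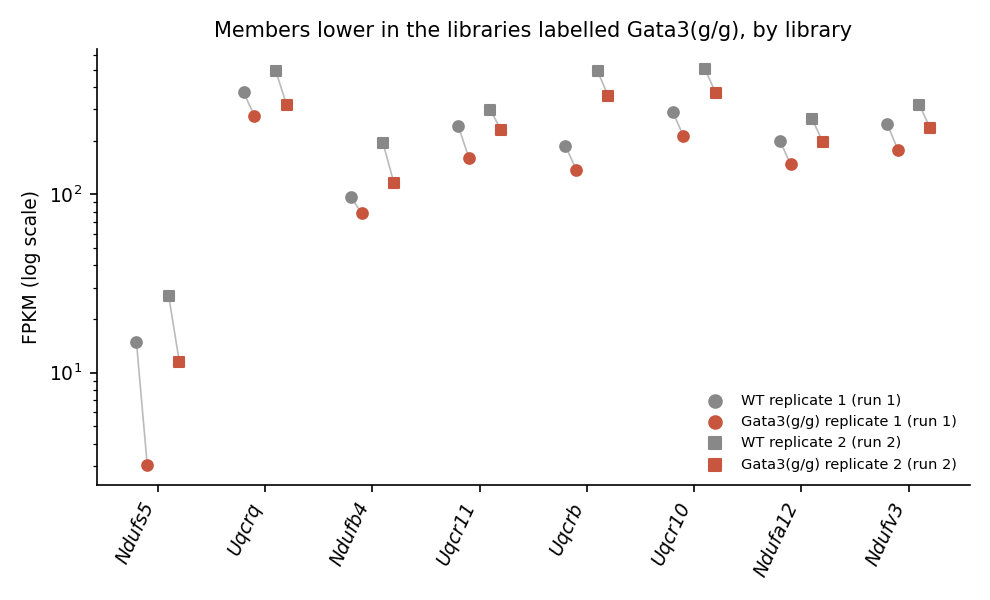
FPKM (vertical axis, logarithmic) of the 8 members that fell in Gata3(g/g), by library, circles for run 1 and squares for run 2, with a line joining the genotypes of a run. Every line falls from WT to Gata3(g/g); for Uqcrb the step between runs, from 186 to 489 FPKM in WT, exceeds the step between genotypes.

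In complex I, edgeR called 4 of 36 tested members lower, where it called 2.99% of all genes lower. The median log2 fold change was -0.18 (-0.26 in run 1 and -0.09 in run 2). All 4 were among the 29 accessory subunits, which surround the catalytic core (median -0.21), and 0 of the 7 core subunits were called (median -0.14). Of the core genes, 1, Ndufs3, had an unadjusted p under 0.05 with a positive sign, where 20.9% of all genes reached it. Neither DESeq2 nor limma called any core gene. Of the accessory genes, DESeq2 with the block called 1 lower, Ndufs5, and limma 0. Whether core and accessory genes differ from each other was not tested.

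Ndufs5, an accessory subunit of the iron-sulfur protein fraction, fell most. It measured 14.8 and 27.0 FPKM in WT and 3.04 and 11.5 in Gata3(g/g). Both Gata3(g/g) libraries lay below both WT libraries, with a fitted value of -1.72 ± 0.28 SE on the log2 scale (edgeR adjusted p = 8.74e-04) and within-run differences of -2.19 and -1.27. The value is uncertain, because the files hold a second gene of nearly the same sequence: a transcript of BC002163, annotated in GENCODE as a processed pseudogene on another chromosome, matches Ndufs5 at 99.4% over 319 bases, and the authors' deposited table places BC002163 at Ndufs5's own locus on chromosome 4 (123712710 to 123718186). BC002163 held 40 and 25 fragments in WT and 47 and 58 in Gata3(g/g), a log2 fold change of 0.32 that was not called (adjusted p = 0.748). Summed, the pair of genes held 242 and 275 fragments in WT and 103 and 192 in Gata3(g/g). The summed log2 fold change was -1.25 ± 0.25 SE (edgeR adjusted p = 0.00407), -1.60 in run 1 and -0.89 in run 2; the sum was chosen after the values were seen.

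Ndufa12, an accessory subunit of the matrix arm, measured 199 and 264 FPKM in WT and 147 and 196 in Gata3(g/g), and Ndufv3, which sits beside the NADH-binding subunits, 248 and 316 against 177 and 236. In both genes the Gata3(g/g) libraries lay below both WT libraries, the higher of them by a narrow margin. Their log2 fold changes were -0.44 ± 0.12 and -0.41 ± 0.12 SE (edgeR adjusted p = 0.0389 and 0.0491). Ndufb4, a membrane-arm subunit, measured 96.4 and 193 FPKM in WT and 78.1 and 116 in Gata3(g/g), so the groups overlapped across runs; it fell by 0.26 in run 1 and by 0.78 in run 2 on the log2 scale, and the fitted value was -0.52 ± 0.15 SE (adjusted p = 0.0470). Another annotated gene, Ndufb4c, matches Ndufb4 at 100% over at least 200 bases and Gm15920 matches Ndufa12 at 99.5%, so these 2 values are uncertain as well. The authors' deposited table gives a q under 0.05 to 3 members, Cox6a2, Uqcrq (log2 fold change -0.54, q = 0.0397) and Ndufb4 (-0.58, q = 0.0433), where it does so for 4.1% of the 11123 genes it tested.

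At the core of complex I, Ndufv1, which binds NADH, measured 40.0 and 21.9 FPKM in WT and 30.2 and 23.5 in Gata3(g/g), with differences of -0.39 in run 1 and 0.09 in run 2. Ndufs1, an iron-sulfur subunit, had a fitted log2 fold change of -0.16. Ndufs3 had the highest value of the complex, 0.39, and was not called (edgeR adjusted p = 0.222). It measured 42.8 and 17.4 FPKM in WT and 40.6 and 32.5 in Gata3(g/g), so the positive value came from run 2 (0.88) and not from run 1 (-0.05). Transcripts of 2 other annotated genes match Ndufs3, the best at 98.6% over 792 bases, so its value is uncertain. The most abundant complex I transcript, Ndufa3, stood at 540 and 391 FPKM in WT and 438 and 482 in Gata3(g/g), with opposite signs in the runs (-0.24 and 0.22).

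The bases around the start site are shown for 4 genes that fell, from complexes III and I, to let the members that moved together be compared. They run from 250 bases before the start to 10 after it in RefSeq's GRCm38.p6 models, 5′ to 3′ on the gene's strand, at chr11:4704335-4704594, chr10:80406812-80407071, chr4:123718177-123718436 and chr16:37654359-37654618, all on the minus strand. Capitals mark matches to the motif words searched: the GATA words AGATAA or TGATAA or AGATAG or TGATAG, the NRF1 words GCGCATGCG or GCGCACGCG, the ETS word CCGGAAGT, the YY1 word AAGATGGCG and the estrogen-related receptor word TCAAGGTCA, each on both strands. No matches overlap in these windows.
Uqcr10: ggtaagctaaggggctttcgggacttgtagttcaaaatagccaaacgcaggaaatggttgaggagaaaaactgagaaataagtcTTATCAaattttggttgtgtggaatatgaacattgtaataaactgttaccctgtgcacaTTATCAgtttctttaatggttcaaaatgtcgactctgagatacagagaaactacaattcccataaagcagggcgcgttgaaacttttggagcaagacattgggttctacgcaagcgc
Uqcr11: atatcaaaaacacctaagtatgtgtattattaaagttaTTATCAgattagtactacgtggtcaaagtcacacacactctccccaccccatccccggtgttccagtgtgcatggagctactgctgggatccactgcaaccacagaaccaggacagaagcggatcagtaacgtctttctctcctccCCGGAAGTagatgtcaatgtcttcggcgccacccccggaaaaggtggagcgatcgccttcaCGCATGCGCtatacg
Ndufs5: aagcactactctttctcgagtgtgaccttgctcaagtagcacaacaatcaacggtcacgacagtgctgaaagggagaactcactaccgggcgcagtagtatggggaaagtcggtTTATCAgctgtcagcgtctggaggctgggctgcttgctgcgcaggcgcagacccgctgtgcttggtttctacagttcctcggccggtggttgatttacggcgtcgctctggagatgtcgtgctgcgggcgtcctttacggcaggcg
Ndufb4: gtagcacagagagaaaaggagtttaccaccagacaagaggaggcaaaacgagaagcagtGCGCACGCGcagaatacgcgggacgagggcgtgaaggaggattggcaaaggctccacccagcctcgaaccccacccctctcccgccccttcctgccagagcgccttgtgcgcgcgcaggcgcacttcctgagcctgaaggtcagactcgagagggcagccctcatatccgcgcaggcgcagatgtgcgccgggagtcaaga
Uqcr10 holds 2 GATA words and Ndufs5 1, all as TTATCA on the strand shown; Uqcr11 holds 1 GATA word, 1 ETS word and, across its start, 1 NRF1 word, and Ndufb4 holds 1 NRF1 word.

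Promoters of 74 of the 90 members were matched, 80 windows in all, from 250 bases before to 50 after the start. Cox6a2, Uqcrq and Uqcrb were not among them. GATA words were found in 26.2% of the members' windows and in 29.8% of all 32851 windows of that length. The NRF1 words, bound by a regulator of respiratory chain genes, were found in 17.5% against 3.36%, and the YY1 word in 11.2% against 1.4%. ETS words stood at 6.25% against 3.89% and the estrogen-related receptor word at 2.5% against 0.423%. Of the 6 matched promoters of called-lower members, 4 held a GATA word, 2 an NRF1 word and 1 the ETS word. Among these 6, the windows of Ndufa12, with 1 GATA word, and Ndufv3, with 0 of the words searched, are not shown above. A word match is not a bound site.

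Complex V had no called member among 15 tested. With edgeR, 3 of them had an unadjusted p under 0.05, all negative, where 20.9% of all genes reached it. Neither DESeq2 nor limma with the block called any. Its median log2 fold change was -0.13, with -0.29 in run 1 and 0.03 in run 2: all 15 were lower in run 1 and 7 in run 2. The 5 genes of the F1 part, central stalk included, had a median of -0.23, with -0.24 in run 1 and -0.25 in run 2. Of these, 4 were lower in both runs. Atp5b, the catalytic beta subunit, measured 795 and 548 FPKM in WT and 664 and 450 in Gata3(g/g), -0.24 in run 1 and -0.30 in run 2, and was not called (edgeR adjusted p = 0.410). Its partner Atp5a1 had -0.22 and -0.25. Atp5d, a subunit of the central stalk, had the lowest value of the complex, -0.37 (adjusted p = 0.113), with 290 and 334 FPKM in WT and 235 and 246 in Gata3(g/g).

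The rotating c-ring is encoded by Atp5g1, Atp5g2 and Atp5g3, whose mature proteins are alike. In run 1 all 3 were lower in Gata3(g/g) (-0.31, -0.35 and -0.44) and in run 2 all 3 were higher (0.76, 0.07 and 0.18). Atp5g1 measured 92.0 and 36.1 FPKM in WT and 72.6 and 62.4 in Gata3(g/g), and its fitted log2 fold change of 0.21 was the highest of the complex (edgeR adjusted p = 0.580). Of the summed FPKM of the 3 genes, Atp5g1 made up 34.2% and 21.3% in WT and 35.7% and 29.2% in Gata3(g/g), and the libraries of a run were closer to each other in run 1 than in run 2. Several annotated copies match Atp5g1 and Atp5g2 (4 each), so their values are uncertain. Atp5k, a membrane subunit, was the most abundant of all members, with 1138 and 840 FPKM in WT and 872 and 755 in Gata3(g/g) (log2 fold change -0.28, adjusted p = 0.192).

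Complex II, the succinate dehydrogenase that also serves the citric acid cycle, had no called member among 4 with edgeR, DESeq2 or limma, and none with an unadjusted p under 0.05. Sdhb, its iron-sulfur subunit, measured 68.6 and 65.7 FPKM in WT and 50.7 and 64.4 in Gata3(g/g), with -0.41 in run 1 and -0.05 in run 2. Sdha, the flavoprotein, had -0.14, Sdhd likewise -0.14, and Sdhc -0.02. In complex IV no member was called lower, though the median of its 14 tested members, -0.20, was like that of complex I. With edgeR, 5 of them had an unadjusted p under 0.05 with a negative sign, where 20.9% of all genes reached it in either direction. Cox5a and Cox5b, which lie against the catalytic core, had -0.19 and -0.22. Upper-quartile scaling called 2 of its members lower, Cox7a2 and Cox7c, which stood at adjusted p = 0.0597 and 0.0541 with TMM. Annotated copies at 90% identity or more over at least 200 bases also match other genes named here. Among them are Cox5a, Cox5b and Cox7c (1 copy each) and Cox7b (4), so their values are uncertain too. The group of 8 symbols that are not subunits had a median of 0.05, with 0 called by edgeR, DESeq2 or limma. With edgeR, 1 of the 8, Ndufaf2 at -0.34, had an unadjusted p under 0.05, where 20.9% of all genes reached it.

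The runs did not agree equally for all members. In run 1, 80 of the 85 tested members were lower in Gata3(g/g), 94.1% against 49.8% of all genes tested. In run 2, 53 were lower, 62.4% against 48.2%. In total, 51 members were lower in both runs (60.0%, against 31.3% of all genes), 3 were higher in both (33.3% of all genes were), and 31 differed in sign between the runs. The median of the members was -0.26 in run 1 and -0.09 in run 2. On the FPKM scale, both Gata3(g/g) libraries lay below both WT libraries for 22 members, while 14.8% of all genes did so, and above them for 2, Cox6a2 and Atp5s, where 14.2% of all genes did so. For 57 members (67.1%) the run difference averaged over genotypes was larger than the genotype difference averaged over runs, as for 65.7% of all genes.

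**Figure D4:**
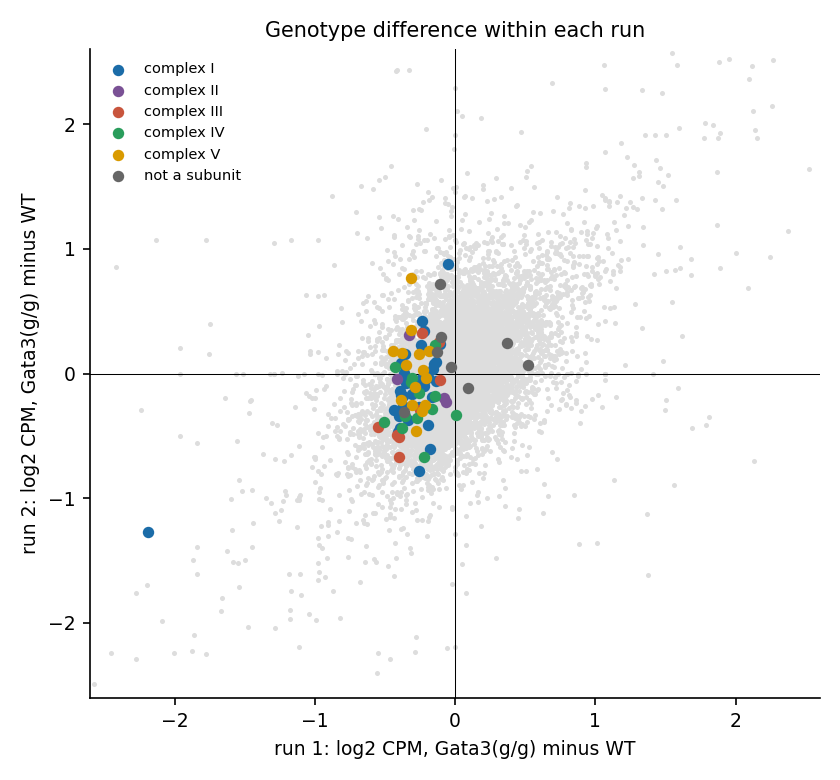
Genotype difference (log2 CPM, counts scaled to library size, Gata3(g/g) minus WT) in run 1 (horizontal axis) against run 2 (vertical axis) for the members, coloured by complex, over all genes tested in grey. Most members lie left of 0 in run 1 and spread to both sides of 0 in run 2; Cox6a2, at 3.51 and 2.83, lies outside the plotted range.

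Together the 82 subunit genes took 1.66% and 1.55% of the fragments in the WT libraries and 1.43% and 1.41% in Gata3(g/g), with 95% Wilson intervals at most 0.0128 percentage points wide that cover counting error only. The means were 1.61 ± 0.0798% and 1.42 ± 0.0189% (SD, n = 2). Both Gata3(g/g) libraries lay below both WT libraries. The exact two-sided permutation test, which did not pair the libraries by run, gave p = 0.333, the smallest that 2 against 2 libraries allow. By complex, the share was 0.432 ± 0.00482% against 0.387 ± 0.0227% for complex I, 0.146 ± 0.0151% against 0.123 ± 0.0111% for complex III and 0.350 ± 0.0282% against 0.302 ± 0.0304% for complex IV. For complex V it was 0.626 ± 0.115% against 0.559 ± 0.0812%, with overlapping libraries. These were 6 tests in all, over the subunits together and each complex, and none of them could pass 0.05 at this size.

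The 8 members that fell all have short transcripts. By the median length of a gene's annotated coding transcripts (GENCODE M21), all 8 lay under 1000 bases: 8 of 52 short members were called lower (15.4%) and 0 of 32 longer ones. Among all genes tested, 6.58% of 881 short genes and 2.61% of 8803 longer ones were called lower. The median log2 fold change was -0.25 for short and -0.05 for longer members, and -0.08 and 0.02 for all genes. Across the 84 members with a length, Spearman's rho between length and log2 fold change was 0.46, and across all 9684 genes with one it was 0.13; these genes share the same 4 libraries and are not independent. The members are short as a class, with a median of 751 bases against 2615. The part of length in the result was not tested.

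**Figure D5:**
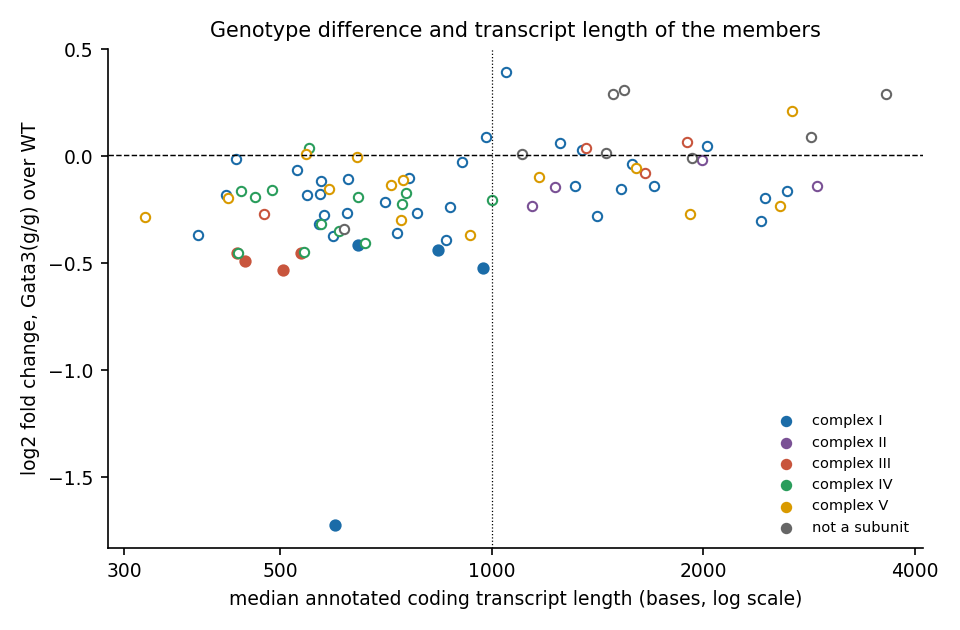
Median annotated coding transcript length in bases (horizontal axis, logarithmic) against the log2 fold change of each tested member (vertical axis, Gata3(g/g) over WT), coloured by complex and filled where the member passed the test; the dotted line marks 1000 bases. All filled points shown lie left of the line; Cox6a2, at 3.23, lies above the plotted range.

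Genes of the pathway outside the symbol rule were read from the same fit. Of 9 electron carriers and further subunits, 2 fell: Usmg5, a small ATP synthase-associated protein, at 497 and 925 FPKM in WT and 410 and 592 in Gata3(g/g) (log2 fold change -0.47 ± 0.14 SE, edgeR adjusted p = 0.0487), and Atpif1, the inhibitor of ATP hydrolysis by complex V, at 420 and 767 against 303 and 534 (-0.50 ± 0.13 SE, adjusted p = 0.0248). The groups overlapped across runs for both genes, and both fell in each run. DESeq2 with the block called Atpif1 (adjusted p = 0.0282) and not Usmg5 (0.127), limma with the block called neither (0.291 and 0.339), and without the block no tool called either. The list's median was -0.25, and edgeR with the block called 2.99% of all genes lower. Of 26 tested assembly factors, 0 were called by edgeR, DESeq2 or limma, and the median was -0.07. With edgeR, 2 had an unadjusted p under 0.05, both negative, where 20.9% of all genes reached it.

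Among 15 tested regulators of mitochondrial biogenesis and transcription the median was 0.08, and 1 was called. That share is near the 6.9% that the test called among all genes. Ppargc1b, which encodes the transcriptional coactivator PGC-1 beta, measured 3.51 and 4.36 FPKM in WT and 2.29 and 2.23 in Gata3(g/g). Both Gata3(g/g) libraries lay below both WT libraries, and the fitted value was -0.78 ± 0.18 SE on the log2 scale (edgeR adjusted p = 0.0116). That call was made by edgeR with the block alone: DESeq2 and limma with the block gave adjusted p = 0.0628 and 0.208, and without the block no tool called it. Its relative Ppargc1a stayed below 1 FPKM in every library. Nrf1 (-0.08), Gabpa (0.21), Esrra (0.10) and Tfam (0.05), which drive transcription of respiratory chain or mitochondrial genes, were not called.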

How the data were processed

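TopHat2 2.0.8b, Bowtie2 2.1.0, Cuffdiff 2.1.1 and mm10 are named in the submitters' processing notes; neither the annotation nor the strand setting is given in the sources used here. Libraries came from DNase-treated RNA and a NuGEN Encore Complete kit, per the labels' protocols. The values the authors deposited are, per the file headers, estimated counts of fragments and FPKM by gene and library, with a comparison table of log2 fold changes and p-values with q-values. Counts were rounded here (97.7% to 98.9% lay within 0.01 of a whole number) and 3 genes at loci too deep to estimate were left out. The 10224 genes averaging at least 1 FPKM were tested with edgeR 4.0.16 (R 4.3.3, glmQLFTest, two-sided, TMM factors 0.983 to 1.02, Benjamini-Hochberg at 0.05). The run was a block, which leaves 1 residual degree of freedom, so p-values lean on the spread pooled over genes. The labels' sequence identifiers name the run, and the run differences of the genotypes had a Pearson correlation of 0.754 across genes. Within-run values are log2 CPM with a prior count of 2, and SE is the standard error of the log2 fold change. Alternatives were the fit without the block, DESeq2 1.42.0, limma 3.58.1 on log2(FPKM + 1), other scalings and filters, and leaving out each library. The named genes are Cox6a2 and its neighbours, every called member, isoform families, core subunits, and the extreme and most abundant genes of each complex; 1 core subunit is not reported here. Members and lists were chosen with earlier results of these data known.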

Additional observations from a re-analysis of the deposited data

How the results depend on the processing

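Each genotype had 2 libraries, and the calls depend on the run block. Against 8 members lower and 1 higher, edgeR without the replicate block called 0 lower and 0 higher, limma without it 0 and 0, and DESeq2 without it 0 lower and kept Cox6a2. With the block, DESeq2 called 2 members lower (Ndufs5 and Uqcrq) and limma 0, with a pseudocount of 1 or 0.1. Scaling by library totals and a minimum mean of 5 FPKM each left 3 (Ndufs5, Uqcr11 and Uqcrq). Over all genes the 705 calls became 0 without the replicate block, 417 with DESeq2 and 88 with DESeq2 and no block, 18 with limma, 5 with limma and no block, 42 with a pseudocount of 0.1 and 348 with the 5 FPKM minimum. Without the block the Cox6a2 call was lost in edgeR (3.19) and limma (2.68, as with the block), with little or no change in size. Library totals raised the median of all genes from 0.01 to 0.06 and every complex's median alike, those of III and IV to -0.31 and -0.15. That common shift took Ndufa3 (0.0366) and Sdhc (0.0301) across 0. Values near 0 also turned for Uqcrfs1 without the block (-0.00514 with edgeR and -0.00733 with DESeq2) and for Ndufa3 with the 5 FPKM minimum (0.00438); the cause was not tested.

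With each library left out in turn, in edgeR fits without the block, or with a run alone, all genes called ranged from 1 to 11, members called lower stayed at 0 and members called higher ranged from 0 to 1, with fewer libraries in each fit; where a genotype kept 1 library, it is assumed to vary like the other. Cox6a2 ranged from 2.74 to 3.75. Medians ranged from -0.22 to -0.0624 for complex II, -0.48 to -0.20 for III and -0.42 to -0.13 for IV. Genes whose sign turned ranged from -0.44 to 0.88 (Atp5g1), -0.64 to 0.41 (Atp5g2), -0.44 to 0.18 (Atp5g3), -0.37 to 0.0185 (Cox4i1), -0.56 to 0.25 (Cox6b1), -0.56 to 0.25 (Cox7a1), -0.0793 to 0.0905 (Cox7a2l), -0.23 to 0.31 (Cox8a), -0.25 to 0.22 (Ndufa3), -0.52 to 0.14 (Ndufa4), -0.21 to 1.05 (Ndufs3), -0.56 to 0.27 (Ndufv1), -0.33 to 0.31 (Sdhc), -1.26 to 0.38 (Uqcrb), -0.32 to 0.17 (Uqcrc1), -0.23 to 0.36 (Uqcrc2) and -0.35 to 0.44 (Uqcrfs1).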
